A study of Mus musculus with 8 samples.

Results

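Fos, Fosb, Fosl1, Fosl2, Jun, Junb and Jund, the Fos and Jun genes of mouse, were described in the fibroblast line NIH3T3, an immortalised mouse line. They were taken by gene symbol, 7 of the 23304 gene rows of the count tables, and all 7 passed the filter on low counts that left 12807 genes for testing. RNA was sequenced from WT cells and from ZMYND11 KO cells, in which Zmynd11 was targeted by CRISPR, each at 0 h with no agent and at 2 h with mouse recombinant interferon-beta (IFNβ, 100 units/ml), with 2 libraries per group. All cells carry the strain label Swiss albino and grew in donor bovine serum, while the extraction text speaks of MEFs (mouse embryonic fibroblasts). The labels give neither the clone or clones of the KO nor separate cultures, so a p-value here measures the spread between libraries, which may be technical.

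The products of these genes are the subunits of AP-1, a transcription factor of the basic leucine zipper (bZIP) class. Jun proteins pair with one another or with Fos proteins, Fos proteins need a partner such as Jun, and the pairs bind the TPA response element and related sites in DNA. In fibroblasts several of these genes are immediate early genes, which growth factors, serum and stress switch on within minutes through MAP kinases and whose transcripts decay fast. AP-1 takes part in proliferation and in the expression of matrix proteases.

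Gene reads summed to 13671013 to 21299120 per library, and 14847 to 17498 genes had reads, most in KO 0 h replicate 2. Levels are in CPM, counts relative to library size after TMM scaling, and 1 read amounted to 0.04597 to 0.07004 CPM. Values for 4 groups are given in the order WT 0 h, WT 2 h, KO 0 h, KO 2 h, as mean ± SD (n = 2). Zmynd11, the targeted gene, stood at 122 ± 1.62, 3.398 ± 0.303, 134 ± 4.26 and 4.001 ± 0.978 CPM. Ifit1, an interferon-induced antiviral gene, stood at 1.299 ± 0.109, 2.84 ± 1.57, 213 ± 23.3 and 388 ± 11.6 CPM, and Isg15, another, at 4.803 ± 0.505, 3.56 ± 0.0742, 67.5 ± 4.28 and 72.5 ± 2.27 CPM. Zmynd11 was thus low in both 2 h groups and high in both 0 h groups, against the genotype label of WT 2 h and KO 0 h, and both interferon genes were far higher in the 2 KO groups than in the 2 WT groups. Whether the labels WT 2 h and KO 0 h were exchanged cannot be told from the sources used here. If they were, the comparisons called those of time below would be between genotypes, and those between WT and KO at 1 time would be between times. Group names, "at 0 h" and "at 2 h" below are therefore labels only, and each direction is one between labels. Of 10 fibroblast markers, 9 had a mean of at least 1 CPM in each group, and the list summed to 41280 to 46075 CPM in the 0 h libraries and 18606 to 20544 CPM in the 2 h libraries. Of 6 endothelial markers 1 reached that level, and the sum was 2.46 to 5.35 and 12.2 to 14.7 CPM. The 5 skeletal muscle markers (1 or 2 at that level) summed to 3.07 to 3.69 and 14.99 to 17.7 CPM, and the 6 epithelial ones (likewise) to 6.25 to 7.56 and 3.03 to 3.85 CPM. The 7 blood and macrophage markers in the table (6 or 7 at that level) summed to 37.8 to 75.4 and 42.4 to 78.6 CPM, and the 4 adipocyte markers to at most 1.203 CPM. Each marker in the table had reads in at least 1 library. Their part in the results below was not tested, and in bulk samples fewer cells of a type and less RNA per cell cannot be told apart.

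Fosb had the largest difference between times of the 7 genes. It was 8.13-fold higher at 2 h in the WT labels and 7.13-fold higher in the KO labels. Fosl2, Jun, Junb and Jund were higher at 2 h by smaller amounts in both, Fosl1 passed the test in the KO labels alone, and Fos, the founding member of its family, passed in neither. In 5 of the 7 genes, Fosb, Fosl2, Jun, Junb and Jund, each of the 4 libraries at 2 h was higher than each of the 4 at 0 h. The same was true of 29.7% of the 12807 genes tested.

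**Figure D1:**
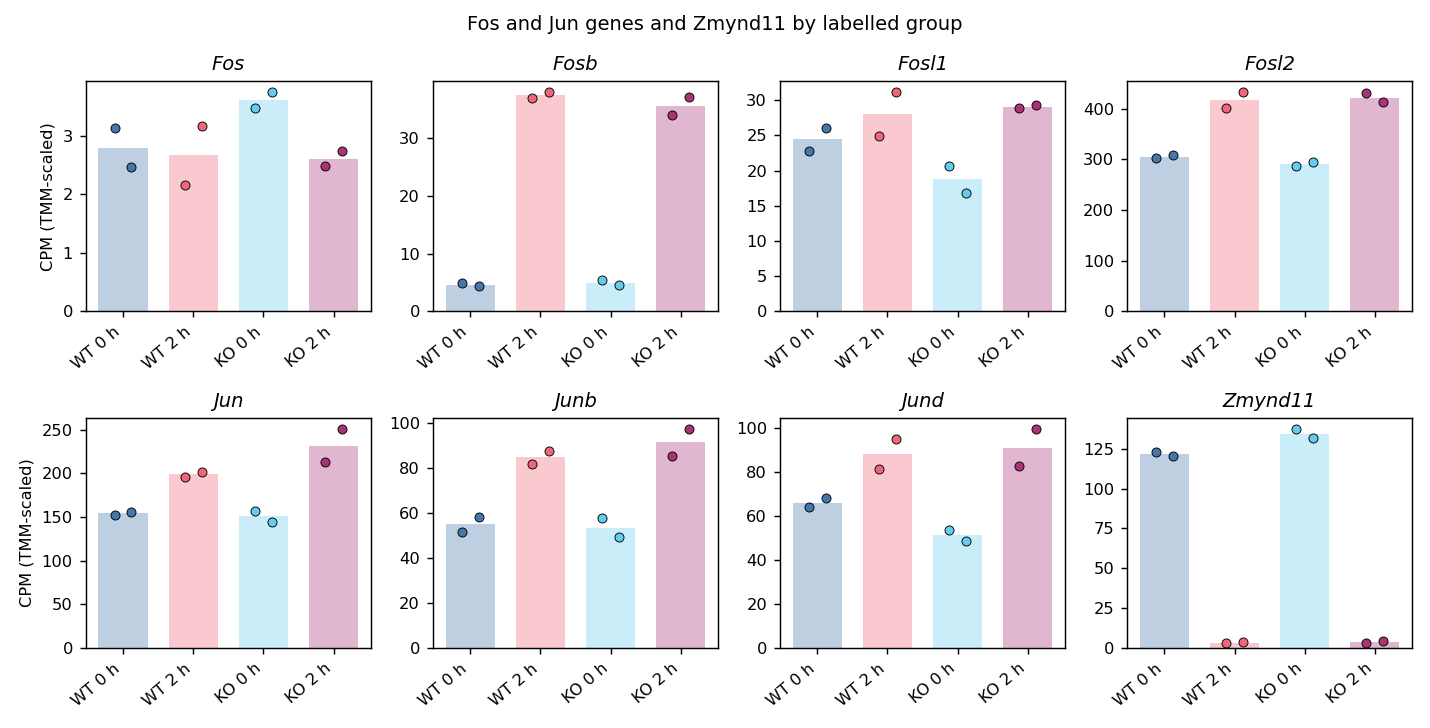
Levels of the 7 Fos and Jun genes and of Zmynd11 in CPM (TMM-scaled, linear axes from 0) by labelled group. Points are single libraries, 2 per group, and bars are their means. Fosb stands at 4.37 to 5.35 CPM at 0 h and at 34.1 to 38.02 CPM at 2 h, Zmynd11 takes the opposite course, and the Fos libraries overlap between times in the WT labels.

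The 250 bases before the annotated start are shown for Fos and Fosb, members of 1 family that differed between times to different degrees, and for Jun, whose textbook promoter carries a site that AP-1 itself binds. They come from the RefSeq promoter table of build GRCm38.p6, which held 6 of the 7 members (all but Fosl1), while the counts were made on mm9. They are written 5′ to 3′ on the strand of the gene, and capitals mark the motif matches given below.
Fos: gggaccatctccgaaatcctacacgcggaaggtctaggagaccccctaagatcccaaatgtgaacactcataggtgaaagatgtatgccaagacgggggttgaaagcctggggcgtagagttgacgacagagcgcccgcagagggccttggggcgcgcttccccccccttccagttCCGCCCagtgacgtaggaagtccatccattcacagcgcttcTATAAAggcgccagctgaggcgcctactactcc
Fosb: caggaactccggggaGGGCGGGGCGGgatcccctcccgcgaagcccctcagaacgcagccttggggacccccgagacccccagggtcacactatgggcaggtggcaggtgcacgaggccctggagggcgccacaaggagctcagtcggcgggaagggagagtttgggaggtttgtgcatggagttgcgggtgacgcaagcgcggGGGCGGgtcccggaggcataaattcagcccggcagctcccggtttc
Jun: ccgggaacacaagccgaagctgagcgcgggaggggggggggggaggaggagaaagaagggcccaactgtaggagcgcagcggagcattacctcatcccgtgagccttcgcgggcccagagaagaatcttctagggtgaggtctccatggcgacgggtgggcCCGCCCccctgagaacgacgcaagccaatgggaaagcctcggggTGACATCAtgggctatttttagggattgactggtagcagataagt
The Fos stretch is chr12:85473640-85473889 (plus strand), the Fosb stretch chr7:19310046-19310295 (minus strand) and the Jun stretch chr4:95052223-95052472 (minus strand). In windows from 250 bases before to 50 bases after the start, 8 motifs were searched on both strands. The Fos window held a TATA box (TATAAA, in 13.6% of the 32851 promoters of the table) 33 bases before the start and a GC box (GGGCGG, in 35.7%) on the opposite strand. The Fosb window held 3 GC boxes, 2 of which overlap, and no TATAAA. The Jun window held TGACATCA, the variant TPA response element known from this promoter, 45 bases before the start (in 3.62% of promoters), and a GC box on the opposite strand. Of the windows not shown, Fosl2 had a GC box and, 221 bases before the start on the opposite strand, a match to the core of the interferon-stimulated response element (3.44% of promoters). Junb had TATAAA from the annotated start on, and Jund had no match. The TPA response element (TGANTCA, 7.81%), the cAMP response element (TGACGTCA, 1.79%), the CArG box of serum response factor (1.63%) and the interferon-gamma-activated site (TTCNNNGAA, 8.298%) had no match in the 6 windows. A match is a description of letters, not a site in use. Sites farther from the start and other variants of these letters were not searched. The lack of a match therefore does not show that a gene lacks such a site.

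The first comparison sets WT 2 h, labelled as given IFNβ, against WT 0 h. In it Ifit1 was higher (1.12, SE 0.32, edgeR adjusted p = 0.00649) and Isg15 lower (-0.43, SE 0.17, edgeR adjusted p = 0.0326), at levels far below those of KO 0 h. Fosb, an immediate early member of the Fos family, stood at 4.84 and 4.37 CPM at 0 h and at 37.02 and 38.02 CPM at 2 h. The groups lie far apart (log2 fold change 3.02, SE 0.14, edgeR adjusted p = 2.48e-14). Of the genes tested, 97.6% had a lower change. Fosl2, whose product is Fra-2, stood at 303 and 308 CPM at 0 h and at 402 and 433 CPM at 2 h. Its groups do not overlap (log2 fold change 0.45, SE 0.07, edgeR adjusted p = 1.27e-05). Fosl1, which encodes Fra-1, stood at 22.8 and 26.1 CPM at 0 h and at 24.9 and 31.2 CPM at 2 h. Its libraries overlap, and the difference did not pass (log2 fold change 0.20, SE 0.13, edgeR adjusted p = 0.192, 95% interval -0.07 to 0.46). Fos stood at 3.13 and 2.46 CPM at 0 h and at 2.16 and 3.17 CPM at 2 h. With 40 to 64 reads in each of these libraries, its difference did not pass (log2 fold change -0.07, SE 0.29, edgeR adjusted p = 0.847, 95% interval -0.67 to 0.53).

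The 3 Jun genes were each higher at WT 2 h, with groups that do not overlap. Jun, the prototype of its family, stood at 152 and 156 CPM at 0 h and at 196 and 202 CPM at 2 h (log2 fold change 0.37, SE 0.08, edgeR adjusted p = 0.000597). Junb, a weaker activator that can oppose Jun, stood at 51.8 and 58.5 CPM at 0 h and at 81.97 and 87.8 CPM at 2 h (log2 fold change 0.62, SE 0.10, edgeR adjusted p = 8.46e-06). Jund, a Jun gene with steady expression in many cells, stood at 64.1 and 67.9 CPM at 0 h and at 80.997 and 94.98 CPM at 2 h (log2 fold change 0.41, SE 0.10, edgeR adjusted p = 0.00102). In all, 5 of the 7 members passed, each of them higher, where edgeR called 61.2% of all genes, 30.1% higher and 31.1% lower. Groups did not overlap in 5 of the 7 members and in 82.6% of all genes. The median log2 fold change was 0.41 over the members and 0.01 over all genes. Tested against a fold of 1.5, Fosb alone of the 7 passed. With library size as the only scaling, the median of all genes moved up by 0.14 and edgeR called 4823 genes higher and 3055 lower, against 3853 and 3984. Fosl1 then passed (0.34, edgeR adjusted p = 0.0282), as it did without WT 2 h replicate 1 (0.39, edgeR adjusted p = 0.0366).

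The second comparison puts this question to the KO labels and shares no library with the first. Fosb stood at 5.35 and 4.54 CPM at 0 h and at 34.1 and 37.1 CPM at 2 h (log2 fold change 2.83, SE 0.14, edgeR adjusted p = 1.27e-13). Of the genes tested, 97.8% had a lower change. Fosl2 stood at 287 and 296 CPM at 0 h and at 430.5 and 413 CPM at 2 h (log2 fold change 0.53, SE 0.07, edgeR adjusted p = 1.32e-06). Fosl1 stood at 20.7 and 16.8 CPM at 0 h and at 28.9 and 29.3 CPM at 2 h, and here it passed (log2 fold change 0.63, SE 0.13, edgeR adjusted p = 0.000315). Both of its KO 0 h libraries were below each of the other 6. Fos stood at 3.48 and 3.74 CPM at 0 h and at 2.48 and 2.73 CPM at 2 h. Its groups do not overlap, but the difference did not pass (log2 fold change -0.47, SE 0.29, edgeR adjusted p = 0.1601, 95% interval -1.07 to 0.12).

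Among the Jun genes in the KO labels, Jund stood at 53.6 and 48.5 CPM at 0 h and at 82.4 and 99.5 CPM at 2 h (log2 fold change 0.83, SE 0.10, edgeR adjusted p = 3.18e-07). Junb stood at 57.8 and 49.5 CPM at 0 h and at 85.6 and 97.6 CPM at 2 h (log2 fold change 0.77, SE 0.10, edgeR adjusted p = 5.31e-07). Jun stood at 158 and 145 CPM at 0 h and at 213 and 251 CPM at 2 h (log2 fold change 0.62, SE 0.08, edgeR adjusted p = 1.17e-06). In all, 6 of the 7 members passed, each of them higher, where edgeR called 61.1% of all genes, 30.0% higher and 31.2% lower. Groups did not overlap in 7 of the 7 members and in 77.5% of all genes. The median log2 fold change was 0.63 over the members and -0.01 over all genes. Tested against a fold of 1.5, Fosb, Junb and Jund passed. With library size as the only scaling, the median of all genes moved up by 0.15 and edgeR called 4834 genes higher and 3036 lower, against 3838 and 3991. Zmynd11 was lower at 2 h in both comparisons of time (-5.16, SE 0.13 in the WT labels and -5.11, SE 0.13 in the KO labels), and the label of time and the level of Zmynd11 cannot be told apart in them.

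**Figure D2:**
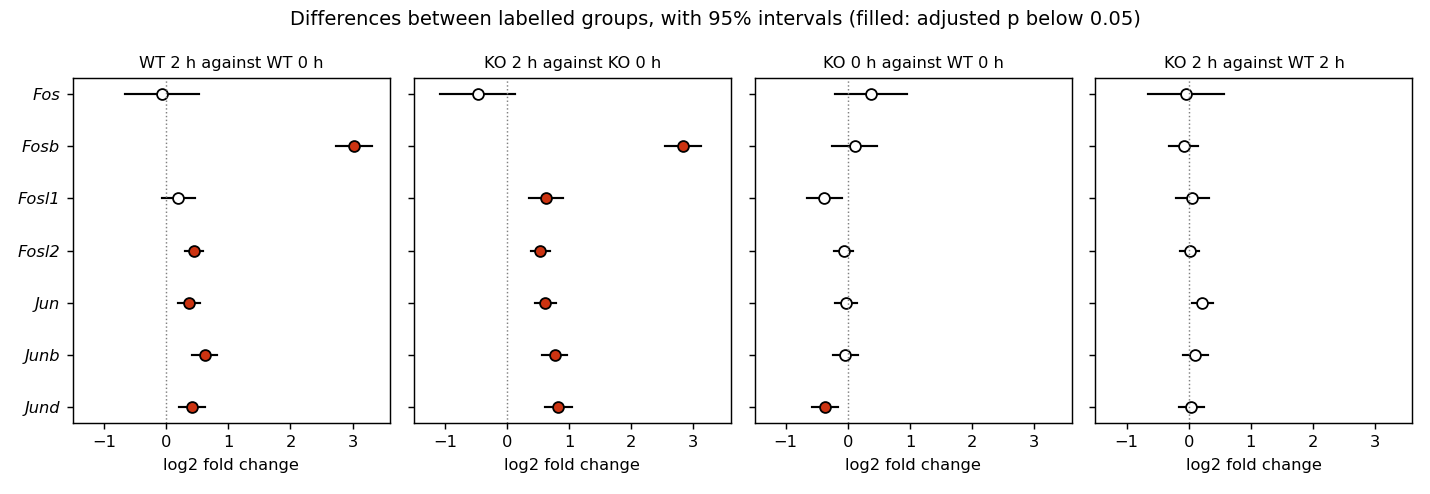
Log2 fold changes of the 7 genes in 4 comparisons of labelled groups, from the model over all 12807 genes. Circles are estimates, lines are 95% intervals, and filled circles have an edgeR adjusted p below 0.05. Fosb stands at 3.02 and 2.83 in the comparisons of time, and the 7 circles of KO 2 h against WT 2 h are open.

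Within each library, the ratio of Fosb reads to Fos reads does not depend on library size. It was 1.55 and 1.78 in WT 0 h and 1.54 and 1.21 in KO 0 h. It was 17.2 and 12 in WT 2 h and 13.7 and 13.6 in KO 2 h, so that the 4 libraries at 2 h lie above the 4 at 0 h. The lowest exact (Clopper-Pearson) 95% limit at 2 h was 9.15 and the highest at 0 h was 2.57, limits that cover counting error only.

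**Figure D3:**
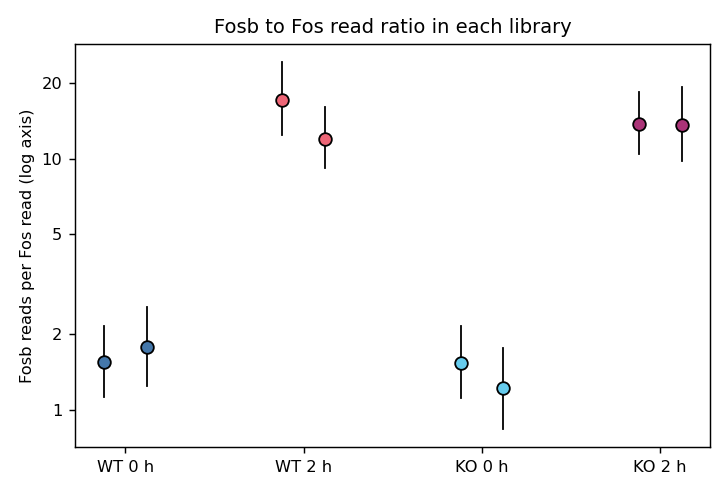
Fosb reads per Fos read in each of the 8 libraries, by labelled group, on a log axis. Points are single libraries and lines are exact 95% limits for counting error. The 0 h libraries lie between 1.21 and 1.78 and the 2 h libraries between 12 and 17.2.

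Levels of different genes were compared per length, as CPM per kb of the longest protein-coding transcript in GENCODE M21. In WT 0 h the order was Jun at 48.4 ± 0.761, Fosl2 at 46.7 ± 0.556, Jund at 39.6 ± 1.64, Junb at 30.5 ± 2.63, Fosl1 at 13.1 ± 1.24, Fos at 1.32 ± 0.225 and Fosb at 1.22 ± 0.0866 CPM per kb. Of neighbours in this order, only the libraries of Fos and Fosb overlapped. KO 0 h had the same order, but there Jund (30.6 ± 2.17) and Junb (29.6 ± 3.26) overlapped, and Fos (1.71 ± 0.0891) lay above Fosb (1.31 ± 0.151). In WT 2 h Fosl2 (63.8 ± 3.404) and Jun (62.4 ± 1.41) overlapped, and Fosb (9.92 ± 0.186) stood above Fos (1.26 ± 0.339). In KO 2 h Jun led at 72.8 ± 8.55, Jund (54.5 ± 7.24) and Junb (50.6 ± 4.71) overlapped, and Fosb (9.41 ± 0.572) again stood above Fos (1.24 ± 0.0837). Fosb made up 0.675 ± 0.0722%, 3.94 ± 0.175%, 0.7903 ± 0.04899% and 3.504 ± 0.0398% of the summed level per kb of the 7 genes. The order depends on the length used. Over all annotated exon bases Fosl2 came to 31.6 CPM per kb in WT 0 h, and in each group it followed Jun and Jund.

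**Figure D4:**
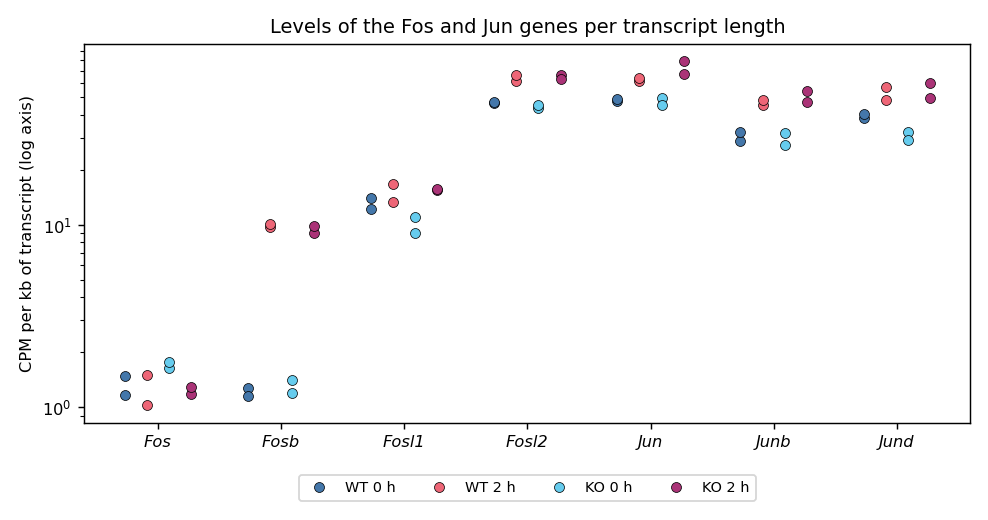
Levels of the 7 genes in CPM per kb of the longest protein-coding transcript, on a log axis, with 1 point per library and colours for the labelled groups. Jun, Fosl2, Jund and Junb lie between 27.3 and 78.8, Fosl1 between 9.04 and 16.7, and Fos between 1.02 and 1.78. Fosb lies near Fos at 0 h and between 9.01 and 10.1 at 2 h.

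The third comparison sets KO 0 h against WT 0 h, groups that also serve in the comparisons above. Between them Zmynd11 did not pass (0.15, SE 0.09, edgeR adjusted p = 0.364) and Ifit1 did (7.35, SE 0.19, edgeR adjusted p = 5.14e-15). Jund alone of the 7 members was called, at 51.1 ± 3.62 CPM in KO 0 h and 65.98 ± 2.73 CPM in WT 0 h (log2 fold change -0.37, SE 0.10, edgeR adjusted p = 0.0463). Of all genes edgeR called 3.92%, and 1.27% were lower. This call depends on which libraries are fitted. It was lost without KO 0 h replicate 2, without either WT 0 h library and without either WT 2 h library. The WT 2 h libraries are not in this comparison and enter it through the shared fit alone. It was also lost with a replicate block (edgeR adjusted p = 0.0586). The log2 fold change of Jund stayed between -0.48 and -0.31 in each alternative. Fosl1 did not pass (log2 fold change -0.38, SE 0.13, edgeR adjusted p = 0.111) but did without KO 0 h replicate 1, when the lone KO 0 h library is assumed to vary like the other groups (-0.58, edgeR adjusted p = 0.0248). The 95% intervals of the log2 difference were -0.21 to 0.95 for Fos, -0.25 to 0.47 for Fosb, -0.22 to 0.08 for Fosl2, -0.20 to 0.14 for Jun and -0.24 to 0.17 for Junb.

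The fourth comparison sets KO 2 h against WT 2 h, where Zmynd11 did not pass (0.19, SE 0.19, edgeR adjusted p = 1) and Ifit1 did (7.10, SE 0.17, edgeR adjusted p = 1.82e-15). By edgeR 0 of the 7 members were called, and by DESeq2 0, where edgeR called 1.60% of all genes. At an unadjusted p below 0.05 there were 1 of the 7 members and 665 of the 12807 genes. The member was Jun, at 199 ± 4.49 CPM in WT 2 h and 232 ± 27.3 CPM in KO 2 h (log2 fold change 0.22, SE 0.08, edgeR adjusted p = 0.488). The 95% interval of the log2 difference was -0.31 to 0.16 for Fosb, -0.14 to 0.16 for Fosl2, -0.09 to 0.31 for Junb and -0.16 to 0.25 for Jund. It was -0.21 to 0.32 for Fosl1 and -0.65 to 0.58 for Fos.

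The interaction tests whether the difference between 2 h and 0 h itself differs between the genotype labels. By edgeR 0 of the 7 members were called, and by DESeq2 0, where edgeR called 0.133% of all genes. At an unadjusted p below 0.05 there were 3 of the 7 members and 1637 of the 12807 genes. Those 3 were Fosl1 (0.43, SE 0.18, edgeR adjusted p = 0.344, 95% interval 0.05 to 0.81), Jund (0.41, SE 0.14, edgeR adjusted p = 0.274, interval 0.12 to 0.71) and Jun (0.25, SE 0.12, edgeR adjusted p = 0.381, interval 0.01 to 0.49). That Fosl1 passed between times in the KO labels and not in the WT labels is therefore not shown to be a difference between them. For Fosb the interaction was -0.19, SE 0.21, with a 95% interval of -0.62 to 0.24.

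KO 2 h was also set against WT 0 h, the pair in which Zmynd11 followed the genotype labels. The pair shares its libraries with the comparisons above. Here 5 of the 7 members passed, each higher in KO 2 h, where edgeR called 62.3% of all genes and 30.8% higher. They were Fosb (2.95, SE 0.14), Junb (0.73, SE 0.10), Jun (0.59, SE 0.08), Fosl2 (0.46, SE 0.07) and Jund (0.46, SE 0.10). Fosl1 (0.25, SE 0.13, edgeR adjusted p = 0.0949) and Fos (-0.11, SE 0.29, edgeR adjusted p = 0.764) did not. Tested against a fold of 1.5, Fosb alone passed. With library size as the only scaling the median of all genes moved up by 0.13, edgeR called 4795 genes higher and 3188 lower, against 3949 and 4026, and Fosl1 passed (0.38, edgeR adjusted p = 0.0148). Fosl1 passed as well when only these 4 libraries were fitted (0.25, edgeR adjusted p = 0.0472).

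Exons of 4 members lie opposite those of other genes. In GENCODE M21, 1163 of the 2033 exon bases of Fosl1 lie opposite exons of Ccdc85b, 877 of 1668 of Jund opposite Gm11175, 173 of 2301 of Junb opposite Prdx2 and 232 of 3189 of Jun opposite Junos, while Fos, Fosb and Fosl2 overlap no other exon. The sources used here do not say whether the counting used strand. Ccdc85b stood at 59.9 ± 0.798, 65.4 ± 5.08, 50.8 ± 2.89 and 66.1 ± 8.17 CPM, the same order of groups as Fosl1. It passed in the KO labels (0.37, SE 0.10, edgeR adjusted p = 0.00239) and not in the WT labels (0.13, SE 0.10, edgeR adjusted p = 0.265), and its part in the values of Fosl1 was not tested. Prdx2 stood at 193 ± 4.37, 172 ± 16.5, 172 ± 13.7 and 166 ± 11.2 CPM and passed in neither comparison of time (edgeR adjusted p = 0.0824 and 0.611).

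Genes whose course was most like that of a member were found by the root mean square difference of centred log2 CPM over the 8 libraries, among tested genes averaging 5 CPM or more. These are descriptions over libraries that share groups. Few genes matched the course of Fosb. Of 9932 genes 2 came within 0.1, Pla2g5, a secreted phospholipase (0.0652), and Serpinb9b, a member of the serpin family (0.0784). Next came Ankrd1, an ankyrin repeat protein of muscle (0.113), with Pearson r of 0.999, 0.999 and 0.997 for the 3. Pla2g5 stood at 2.498 ± 0.267, 19.7 ± 0.991, 2.63 ± 0.0302 and 18.7 ± 1.44 CPM and Serpinb9b at 9.09 ± 0.0669, 67.97 ± 1.02, 8.78 ± 1.17 and 69.7 ± 3.18 CPM. For Fosl2, 441 genes came within 0.1, led by the histone methyltransferase gene Setd1a (0.0172), Ubr2 (0.0207) and the actinin gene Actn1 (0.0237). For Junb (82 genes within 0.1) the nearest were Trim8, Coq5 and Jdp2, which itself encodes a bZIP partner of Jun proteins. For Jun (80) they were Sirt3, Igfbp7 and Hk1, for Jund (33) Ino80b, Nagpa and Prr24, and for Fosl1 (28) Fam89b, Nradd and Zbtb7b. For Fos 0 genes came within 0.1, and the nearest was Purg (0.108). The spread of a member (SD 1.46 in centred log2 CPM for Fosb, 0.249 for Fosl2) and its counting error both bear on such counts. Fos had only 39 to 64 reads per library. The counts therefore cannot tell how common 1 course is beside another.

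Of 21 tested dimer partners and related bZIP factors, 11 were higher and 4 lower at 2 h in the WT labels and 13 and 5 in the KO labels. Of all genes, 30.1% were higher and 31.1% lower in the WT labels and 30.0% and 31.2% in the KO labels. The median log2 fold changes were 0.51 and 0.33, where those of all genes were 0.01 and -0.01. In this and the following lists, paired values in brackets are log2 fold changes at 2 h in the WT labels and then the KO labels, each called by edgeR. Creb5, a relative of Atf2, stood at 0.171 ± 0.103, 6.57 ± 0.214, 0.283 ± 0.166 and 6.69 ± 0.0417 CPM. Crem, a cAMP-responsive modulator, stood at 6.57 ± 0.389, 29.8 ± 3.5996, 10.4 ± 1.995 and 37.3 ± 0.284 CPM and was higher at 2 h in both labels (2.18, SE 0.15 and 1.86, SE 0.14). The small Maf gene Mafk stood at 34.5 ± 1.56, 114 ± 2.54, 43.1 ± 8.26 and 143 ± 13.6 CPM (1.73, SE 0.11 and 1.72, SE 0.11). Ddit3, a bZIP factor of stress responses, was higher at 2 h by 3.23, SE 0.10 and 2.98, SE 0.10. Between KO 0 h and WT 0 h, Crem (0.65, SE 0.16, edgeR adjusted p = 0.0258) and Batf2 (3.07, SE 0.85, edgeR adjusted p = 0.0446) were called higher. The SE of Batf2 is wide, and this gene fell short of the rule for named genes (at least 5 CPM and groups that do not overlap).

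A further list held serum response factor, its partners at the serum response element, through which Fos is switched on, and Mef2, Nab and coactivator genes. Of its 13 tested genes, 5 were higher and 4 lower in the WT labels and 5 and 3 in the KO labels (medians 0.03 and 0.10). The shares of all genes were 30.1% and 31.1%, and 30.0% and 31.2%. Mkl1, an actin-sensing coactivator of serum response factor, stood at 115 ± 5.42, 58.98 ± 5.95, 95.98 ± 0.00503 and 61.1 ± 0.877 CPM and was lower at 2 h (-0.96, SE 0.09 and -0.65, SE 0.09). Nab2, a corepressor of Egr proteins, stood at 151 ± 8.59, 261 ± 14.3, 141 ± 18.9 and 286 ± 26.6 CPM and was higher (0.79, SE 0.09 and 1.02, SE 0.09), as was Mef2c (1.39, SE 0.15 and 1.67, SE 0.15). Of 29 genes of the MAP kinase pathways 6 were higher and 12 lower in the WT labels and 6 and 11 in the KO labels (medians -0.11 and -0.14), the shares of all genes being 30.1% and 31.1%, and 30.0% and 31.2%. Map2k1, the kinase MEK1 of the ERK pathway, stood at 64.5 ± 4.97, 115 ± 5.89, 73.8 ± 0.167 and 127 ± 3.66 CPM and was higher at 2 h (0.84, SE 0.08 and 0.79, SE 0.08). Rps6ka5, a kinase of mitogen and stress signals, was lower (-0.82, SE 0.18 and -0.85, SE 0.18).

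Of 19 tested genes that act on the turnover of AP-1 transcripts and proteins, 2 were higher and 10 lower in the WT labels and 4 and 11 in the KO labels (medians -0.25 and -0.36), the shares of all genes being 30.1% and 31.1%, and 30.0% and 31.2%. Zfp36, which directs AU-rich transcripts such as that of Fos to decay, stood at 9.24 ± 0.205, 21.6 ± 0.749, 13.5 ± 2.203 and 36.5 ± 1.36 CPM. It was higher at 2 h in both labels (1.23, SE 0.13 and 1.45, SE 0.13), in KO 0 h against WT 0 h (0.54, SE 0.14, edgeR adjusted p = 0.0367) and in KO 2 h against WT 2 h (0.76, SE 0.12, edgeR adjusted p = 0.000291). Cnot6, a subunit of the CCR4-NOT deadenylase, stood at 123 ± 1.85, 55.4 ± 4.42, 126 ± 18.5 and 55.7 ± 4.15 CPM and was lower at 2 h (-1.16, SE 0.10 and -1.17, SE 0.10). Hnrnpd, which binds AU-rich elements, was lower as well (-0.81, SE 0.10 and -1.08, SE 0.10). Gsk3b, a kinase that marks Jun for degradation, stood at 119 ± 5.82, 198 ± 7.19, 137 ± 10.8 and 205 ± 0.209 CPM and was higher (0.74, SE 0.08 and 0.58, SE 0.08).

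Of 33 tested textbook AP-1 targets of fibroblasts, 19 were higher and 7 lower in the WT labels and 21 and 8 in the KO labels (medians 0.34 and 0.60), the shares of all genes being 30.1% and 31.1%, and 30.0% and 31.2%. The metallothionein genes Mt2 (1.82, SE 0.11 and 2.12, SE 0.11) and Mt1 (1.51, SE 0.08 and 1.76, SE 0.09) were higher at 2 h. Timp1, an inhibitor of matrix proteases, stood at 341 ± 9.77, 82.8 ± 1.18, 311 ± 47.97 and 91.7 ± 3.73 CPM and was lower (-2.04, SE 0.09 and -1.76, SE 0.09), as was the proteoglycan gene Dcn (-1.80, SE 0.09 and -1.86, SE 0.09). The cytokine gene Il6 stood at 0.735 ± 0.136, 3.996 ± 0.149, 1.93 ± 0.773 and 8.94 ± 0.359 CPM. In KO 2 h against WT 2 h it was higher (1.16, SE 0.24, edgeR adjusted p = 0.00521), as was Hmox1, a heme-degrading enzyme (0.36, SE 0.08, edgeR adjusted p = 0.0187).

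Of 28 tested other immediate early genes, 16 were higher and 6 lower in the WT labels and 21 and 3 in the KO labels (medians 0.39 and 0.61), the shares of all genes being 30.1% and 31.1%, and 30.0% and 31.2%. Dusp1, a phosphatase that inactivates MAP kinases, stood at 17.3 ± 1.39, 88.5 ± 2.74, 14.8 ± 1.23 and 88.5 ± 3.39 CPM and was higher at 2 h (2.36, SE 0.10 and 2.58, SE 0.10). The nuclear receptor gene Nr4a1 stood at 93.1 ± 0.764, 159.6 ± 17.8, 57.1 ± 6.06 and 166 ± 4.63 CPM. In KO 0 h against WT 0 h it was lower (-0.70, SE 0.09, edgeR adjusted p = 1.65e-05), as were Egr3 (-0.63, SE 0.14), Per1 (-0.61, SE 0.12) and Sik1 (-0.56, SE 0.13). These were the 4 of the 28 called lower there, where edgeR called 3.92% of all genes, 1.27% lower. Zfp36 alone of the 28 was called higher (0.54, SE 0.14, edgeR adjusted p = 0.0367). Nr4a1 was the 1 gene of the 6 lists called in the interaction (0.76, SE 0.13, edgeR adjusted p = 0.00855).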

How the data were processed

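For each library the authors deposited raw counts by gene symbol, with 4 summary lines (36.9 to 43.2% of reads) that were left out here. The submitters' processing notes name STAR 2.5.2b, HTSeq, bcl2fastq 2.15 and build mm9, without the role of each. The counts were filtered with filterByExpr (minimum count 10, minimum total 15) and TMM-scaled in edgeR 4.0.16 (R 4.3.3). Robust quasi-likelihood tests came from 1 fit of all 8 libraries with a mean for each group (4 residual degrees of freedom). Each of 6 comparisons was adjusted by Benjamini-Hochberg over 12807 genes and called below 0.05. SE is the absolute log2 fold change divided by the root of F. Replicates of each group differed by more than sampling noise. Members and lists were chosen with earlier results of these data known. Named were the members, Zmynd11, Ifit1, Isg15, the 3 most alike genes per member, and up to 4 genes per list and comparison with the largest called change, at least 5 CPM and groups that do not overlap. Ccdc85b, Prdx2, Gm11175, Junos and Batf2 were named after the data were seen. The scripts were tested on simulated data. Alternatives were DESeq2 1.42.0, other scalings and filters, a test against a fold of 1.5, a replicate block, the compared libraries alone and each library left out, where the lone library of a group is assumed to vary like the other groups.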

Additional observations from a re-analysis of the deposited data

How the results depend on the processing

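In both comparisons of time and in KO 2 h against WT 0 h, Fosb kept its direction and its call under each alternative (log2 fold changes 2.94 to 3.16, 2.73 to 2.99 and 2.86 to 3.07). Tested against a fold of 1.5, edgeR called 1, 3 and 1 members there in place of 5, 6 and 5, and 2939, 3012 and 3090 genes in all in place of 7837, 7829 and 7975. In KO 0 h against WT 0 h edgeR called 1 member, but 2 with no low-count filter, 0 with the replicate block, 0 against a fold of 1.5 and 0 to 2 with 1 library left out. The cause was not tested. Of all genes, it called 502 there, 809 with no filter, 322 with the replicate block, 110 against a fold of 1.5 and 174 to 1073 with 1 library left out. In KO 2 h against WT 2 h these were 205 genes, and 111 against a fold of 1.5. In the interaction they were 17, 113 with no filter, 5 against a fold of 1.5, 33 by DESeq2 and 6 to 91 with 1 library left out. The replicate numbers did not pair the libraries (correlations of deviations -0.0533 to -0.005297), and the replicate block changed no other count of members.

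Directions turned in differences that did not pass. With library size alone Fos stood at 0.0692 in WT 2 h against WT 0 h and at 0.0197 in KO 2 h against WT 0 h. With 1 library left out, Fos ranged over -0.3402 to 0.218 and -0.281 to 0.0655 in these. In KO 0 h against WT 0 h Fosb ranged over -0.0587 to 0.208, Jun over -0.133 to 0.0213 and Junb over -0.197 to 0.0578. In KO 2 h against WT 2 h Fos ranged over -0.301 to 0.258, Fosl1 over -0.113 to 0.2195, Fosl2 over -0.0518 to 0.0644 and Jund over -0.105 to 0.166. The length over all exons was chosen after seeing the data. With 39 to 64 reads per library, counting error limits what can be said of Fos.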
